A study of Homo sapiens with 14 samples.

Results

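The positions of SATB1 and of histone H3 acetylated at lysine 27 (H3K27ac) were compared in control Jurkat cells, an established human line from a T cell acute lymphoblastic leukaemia. Of the 14 CUT&Tag libraries of the series, 4 were used for this comparison: 2 against SATB1 and 2 against H3K27ac, all from cells infected with the control shRNA lentivirus, shCtrl, so the cells of all 4 carry a lentiviral vector and none carries an shRNA against SATB1. A region of a target was a stretch called in both of its lists, with peaks on chromosomes 1 to 22 and X merged where they shared at least 1 bp. By this rule there were 13072 SATB1 regions, of 16506 merged from either list, and 15239 H3K27ac regions, of 18697. Other lists served only as independent readouts: H3K27ac in cells with an shRNA against SATB1, shSATB1 (2 libraries), CTCF in shCtrl cells (3) and Matrin 3 (2, with no shRNA named on the label). Jurkat is a single transformed line, and the labels do not tell whether the replicates of a target were grown separately.

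SATB1 is a nuclear protein abundant in thymocytes that binds AT-rich DNA prone to unpair and ties distant sites together, and mice without it arrest T cell development. H3K27ac is laid down mainly by the acetyltransferases EP300 and CREBBP at active promoters and enhancers and removed by histone deacetylases, and SATB1 is known to bind both kinds of enzyme. In CUT&Tag an antibody guides the transposase Tn5, which cuts and tags the DNA around its target. A list of peaks therefore shows where signal passed the authors' calling threshold, not how many cells or molecules carried the target.

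Genes were put in classes by what lay within 2 kb of the start. To show what these starts look like, the 250 bases before the start are given for 2 genes each with both targets, with SATB1 alone and with H3K27ac alone. They rank high among genes whose whole stretch lay inside the regions of the class, with at most 1 gene from a region. Where 1 target is alone, no peak of the other target in either list was allowed. The genes were picked after the values were seen. Some that rank higher, such as ARHGDIB with both and TMEM225B with SATB1 alone, are not printed. The sequences are from RefSeq on GRCh38.p14, written 5′ to 3′ on the strand of the gene, and capitals mark a match on either strand to one of 6 short words that are named with their shares further down. LZTFL1 (chr3:45915725-45915974, minus strand), which regulates traffic into cilia, and CALR (chr19:12938359-12938608, plus strand), which encodes calreticulin, had both. DRC3 (chr17:17972563-17972812, plus strand), a cilium gene, and EVI5L (chr19:7829968-7830217, plus strand) had SATB1 alone. ARHGAP30 (chr1:161069892-161070141, minus strand), a GTPase-activating protein gene, and TEX30 (chr13:102773787-102774036, minus strand) had H3K27ac alone.
LZTFL1: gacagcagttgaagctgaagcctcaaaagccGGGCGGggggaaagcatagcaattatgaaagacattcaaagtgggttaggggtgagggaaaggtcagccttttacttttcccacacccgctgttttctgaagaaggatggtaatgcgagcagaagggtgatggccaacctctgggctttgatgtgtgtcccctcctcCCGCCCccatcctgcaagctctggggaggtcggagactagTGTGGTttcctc
CALR: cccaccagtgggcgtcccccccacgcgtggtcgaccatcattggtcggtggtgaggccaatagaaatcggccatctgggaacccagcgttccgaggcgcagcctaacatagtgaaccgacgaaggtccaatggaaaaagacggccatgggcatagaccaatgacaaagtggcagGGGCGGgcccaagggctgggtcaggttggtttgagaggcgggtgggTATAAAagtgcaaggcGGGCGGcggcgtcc
DRC3: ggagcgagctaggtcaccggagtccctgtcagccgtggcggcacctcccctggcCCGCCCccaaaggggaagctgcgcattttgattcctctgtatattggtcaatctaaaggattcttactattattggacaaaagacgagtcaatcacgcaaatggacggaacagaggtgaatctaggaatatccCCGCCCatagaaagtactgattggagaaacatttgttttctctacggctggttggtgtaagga
EVI5L: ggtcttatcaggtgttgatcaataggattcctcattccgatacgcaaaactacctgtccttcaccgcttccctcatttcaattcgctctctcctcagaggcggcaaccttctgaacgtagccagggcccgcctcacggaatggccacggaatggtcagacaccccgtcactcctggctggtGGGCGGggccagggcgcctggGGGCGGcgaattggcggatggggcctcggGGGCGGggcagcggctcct
ARHGAP30: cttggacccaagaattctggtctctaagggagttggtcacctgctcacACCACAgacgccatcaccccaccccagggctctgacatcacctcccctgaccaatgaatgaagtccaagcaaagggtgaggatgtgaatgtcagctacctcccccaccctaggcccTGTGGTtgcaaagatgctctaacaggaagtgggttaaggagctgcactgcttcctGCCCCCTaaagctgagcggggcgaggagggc
TEX30: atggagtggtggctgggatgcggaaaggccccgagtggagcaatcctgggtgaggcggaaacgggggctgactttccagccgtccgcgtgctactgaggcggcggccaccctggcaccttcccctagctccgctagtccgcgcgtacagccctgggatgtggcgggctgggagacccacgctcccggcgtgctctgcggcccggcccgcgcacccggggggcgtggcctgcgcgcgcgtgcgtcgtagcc

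The SATB1 lists held 15210 and 14726 peaks, and the H3K27ac lists 17863 and 17141. The SATB1 lists had the exact start of 6001 peaks in common, 39.5% and 40.8% of each list, while the H3K27ac lists had 113 in common, 0.633% and 0.659%. Total signal per peak began at 4075 in both SATB1 lists, and at 6836 and 6653 in the H3K27ac lists. The pair of SATB1 lists is therefore treated as 1 sample, without an SD. Read depth is unknown, because the lists give peak signal alone. Signal is the authors', unscaled between libraries, and it was used only to rank peaks within a list: the percentile of a region is the mean over its target's lists of its place when peaks are ordered by their maximum signal. Of 9 T cell identity genes, 8 had H3K27ac at the start in both lists and CD5 had it in 1, against 5 of 12 B-lineage, 1 of 14 myeloid, 1 of 10 erythroid, 1 of 10 epithelial and 0 of 10 neuronal markers, and 7359 of all 19974 protein-coding genes. For genes whose strand was not at hand, CD3E among them, either annotated end counted as the start.

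SATB1 sat mostly inside H3K27ac, and H3K27ac extended well beyond SATB1. Of the SATB1 regions, 9845 overlapped H3K27ac (75.3%, 95% Wilson interval 74.6 to 76.0), and 3227 (24.7%) did not. Of the H3K27ac regions, 8296 overlapped SATB1 (54.4%, 53.6 to 55.2), and 6943 (45.6%) did not. In bases, 16.6 Mb lay in both, which was 78.1% of the 21.3 Mb under SATB1 and 29.6% of the 56.1 Mb under H3K27ac. All such intervals cover counting error only. Without the SATB1 peaks that start at the same base in both lists, the shares were 76.5% of SATB1 regions and 31.3% of H3K27ac regions. Against the single H3K27ac lists the share of SATB1 regions was 77.9% and 77.0%, and against the single SATB1 lists the share of H3K27ac regions was 59.2% and 58.1%.

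Peaks of the targets differed in shape and place. SATB1 peaks had a median width of 1241 and 1228.5 bp, against 2074 and 2087 bp for H3K27ac. Starts of protein-coding genes lay within 2 kb of 29.2% and 29.3% of SATB1 peaks, against 37.6% and 38.1% of H3K27ac peaks. CTCF regions, called in at least 2 of 3 lists, overlapped 68.9% and 69.3% of SATB1 peaks, against 73.4% and 74.5% of H3K27ac peaks. The lists of the targets did not overlap in any of these 3 measures. Each two-sided exact permutation test of 2 against 2 lists gave p = 0.33, the smallest it allows, so none of these differences could have reached the usual level. That test takes the SATB1 lists as 2, and with the pair counted as 1 sample the differences are a description.

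The classes fell in different parts of the genome. Within 2 kb of a gene start, 3525 of 3943 SATB1 regions had H3K27ac (89.4%, 88.4 to 90.3). Away from starts, called distal here, 6320 of 9129 had it (69.2%, 68.3 to 70.2). The reverse share changed less with place: 3507 of 6204 H3K27ac regions at gene starts held SATB1 (56.5%, 55.3 to 57.8) and 4789 of 9035 distal ones (53.0%, 52.0 to 54.0). Shared SATB1 regions were thus 64.2% distal (63.2 to 65.1), regions with SATB1 alone 87.0% (85.8 to 88.2) and regions with H3K27ac alone 61.2% (60.0 to 62.3).

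Regions with SATB1 alone mostly lay over 5 kb from an H3K27ac region called in both lists. Their median distance to the nearest H3K27ac region was 44.4 kb, 12.6% lay within 5 kb and 28.6% beyond 100 kb. H3K27ac regions without SATB1 lay at a median of 30.9 kb from the nearest SATB1 region, with 14.4% within 5 kb. Both lists of a target were required, and 625 of the 3227 regions with SATB1 alone touched an H3K27ac peak called in 1 list, and 1275 of the 6943 with H3K27ac alone touched a SATB1 peak called in 1 list. The SATB1 regions were also narrower when alone, with a median of 1444 bp when shared and 1160 bp when alone; H3K27ac regions had medians of 3030 and 2236 bp.

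By chromosome the share of SATB1 regions with H3K27ac ran between 65.5% on chromosome 15 and 85.5% on chromosome X. The reverse share was lowest on X, at 40.1%, and highest on chromosome 14, at 60.9%. Chromosome X thus had the highest share for SATB1 regions (n = 235) and the lowest for H3K27ac regions (n = 406) of the 23 chromosomes. No chromosome was compared by a test.

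Inside shared regions the summits lay close together. For peaks of a SATB1 list that overlapped an H3K27ac peak, the median distance between the places of maximum signal was 131 to 140 bp over the 4 pairs of lists, and 65.8% to 67.1% were within 250 bp. Between the replicates the median was 63 bp for H3K27ac, and 12 bp for the SATB1 lists, which are counted as 1 sample. The SATB1 maxima were thus farther from the H3K27ac maxima than those of the H3K27ac lists were from each other, and they lay at a similar distance, 115 to 122 bp, from CTCF maxima where a CTCF peak overlapped.

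The place of a region in the H3K27ac ranking went with the presence of SATB1 far more than the reverse. SATB1 regions, cut into 10 equal groups by rank and called deciles here, had H3K27ac at 67.0% (64.5 to 69.5) in decile 1, the lowest, and at 86.4% (84.4 to 88.1) in decile 10. H3K27ac regions held SATB1 at 21.5% (19.5 to 23.6) in decile 1 and at 94.3% (93.0 to 95.3) in decile 10. The H3K27ac gradient was alike at gene starts, with 23% and 94.2% in deciles 1 and 10, and at distal sites, with 21.5% and 94.8%.

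**Figure D1:**
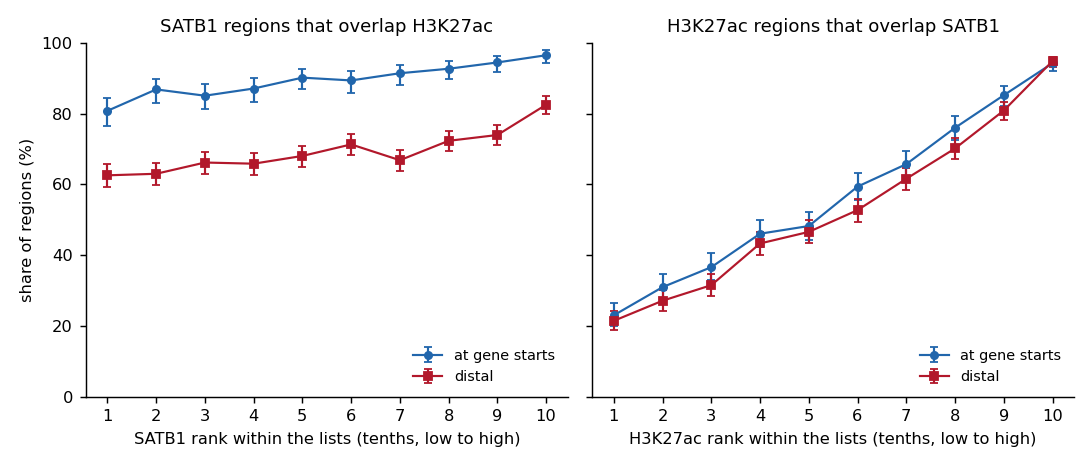
Share of regions (y axis, percent) that overlap the other target, by deciles of the region's own within-list rank (x axis), for regions at gene starts (circles) and distal regions (squares); bars are 95% Wilson intervals. SATB1 regions at gene starts lie at 80.8% or above and distal ones at 62.5% or above, while H3K27ac regions run between 21.5% and 94.8%.

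Wide regions have more room for an overlap, so the ranks were also read within 3 classes of width, each cut into 3 classes of rank. Among the narrowest SATB1 regions the share with H3K27ac was 60.6%, 61.8% and 64.8% in the low, middle and high rank class, and among the widest 79.8%, 90.6% and 91.4%. Among the narrowest H3K27ac regions SATB1 was present in 29.6%, 52.2% and 70.6%, among those of middle width in 28.6%, 51.2% and 73.9%, and among the widest in 33.3%, 54.5% and 85.4%. The share thus went more with width than with rank for SATB1 regions, and more with rank than with width for H3K27ac regions.

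Where both targets were present, the relation of their ranks depended on which regions were counted. Over the 9845 shared SATB1 regions, Spearman's rank coefficient between the SATB1 percentile and that of the highest overlapping H3K27ac region was 0.226, and 0.218 to 0.225 over the 4 pairs of single lists. Over the 8296 shared H3K27ac regions it was 0.391. Between the lists of 1 target it was 0.943 for SATB1 (n = 13072), whose lists share peak starts as given above, and 0.915 for H3K27ac (n = 15239). These coefficients describe regions of the same libraries, which are not independent replicates, and no p is given. The coefficient was 0.319 at gene starts (n = 3525) and 0.194 at distal sites (n = 6320). Over shared regions with CTCF it was 0.241 (n = 8165), and over those without it 0.0562 (n = 1680).

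In decile 1 of shared regions by SATB1 rank the median H3K27ac percentile was 64.1, and in decile 10 it was 89.5. The interquartile ranges, 39.2 to 87.8 and 72.6 to 97.2, overlapped. Each SATB1 region was set against its highest H3K27ac region, so H3K27ac percentiles ran high throughout, and low ones were scarce by construction. Of 2999 shared regions with a SATB1 percentile over 75, 89 had an H3K27ac percentile under 25, and of 1625 with a SATB1 percentile under 25, 654 had one over 75. Both percentiles were over 75 in 1921 regions (19.5% of those shared), of which 93.9% overlapped CTCF, against 64.0% of the 89. The coefficient depended on the measure: ranked by total signal in place of maximum signal, it was 0.352, and over windows of 500 bp on the maxima it was 0.364.

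**Figure D2:**
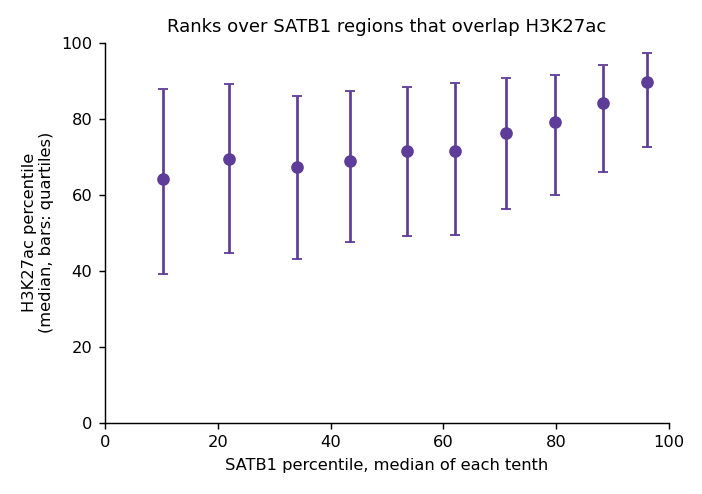
H3K27ac percentile (y axis) against SATB1 percentile (x axis) over the 9845 SATB1 regions that overlap H3K27ac, in deciles of SATB1 rank; points are medians and bars run between the quartiles. The medians lie between 64.1 in decile 1 and 89.5 in decile 10, and the bars of these 2 deciles overlap.

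Long acetylated domains gathered several SATB1 regions. Of the H3K27ac regions with SATB1, 7298 held 1 SATB1 region, and 998 held 2 or more. The most was 12, in 3 domains. CDK6, a kinase that drives entry into S phase, carried 3 consecutive H3K27ac regions on chromosome 7 with 12, 10 and 12 SATB1 regions. The first (92602090 to 92717406, GRCh38, 115 kb) was covered by SATB1 over 80.2% of its length and held the highest H3K27ac maximum of both lists, 927 and 843. Its highest SATB1 peak had maxima of 191 and 207. The last (92787628 to 92854301, 66.7 kb) covers the start of the gene.

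The other domain with 12 SATB1 regions, on chromosome 6 (22041104 to 22092836), overlapped no protein-coding gene. It lay 210 kb from the start of PRL, the nearest start of a protein-coding gene. Noncoding genes were not considered in naming domains. A domain of 49.7 kb with 10 SATB1 regions overlapped RUNX1 and covered its annotated start. The 3 domains with 9 were added after their values were seen because they tie. Of them, 1 covered the start of CHST11 and 1 lay inside ETV6. The other lay 1052 kb from the start of BCL11B, the nearest start of a protein-coding gene. Of these, RUNX1 and ETV6 encode transcription factors of blood cell development that are altered in leukaemias, and BCL11B encodes a regulator of T cell commitment. All 8 domains named here also overlapped CTCF.

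Distances from genes are given here to the annotated start. The 5 strongest distal regions with both targets included 2 in CDK6 and 1 in the domain nearest PRL. Apart from CDK6, they lay 37.3 kb from SPAG16 on chromosome 2 (213225276 to 213247164), with SATB1 maxima of 283 and 261 and H3K27ac maxima of 559 and 501, 255 kb from PRL (280 and 272, and 597 and 471), and 146 kb from ITGA4 (200 and 189, and 662 and 490). The 5 strongest distal regions with SATB1 alone were at SATB1 percentiles of 99.6 to 99.9. One lay on chromosome 2 (83342518 to 83344545), 1115 kb from SUCLG1, with SATB1 maxima of 172 and 167 and no H3K27ac peak in either list. Others lay inside CADM1, a cell adhesion gene (152 and 153), inside DENND1A (160 and 144), and 15.3 kb from BMF, a pro-apoptotic BCL2-family gene (152 and 145, over 11.6 kb). Of the 5 highest, the DENND1A region alone overlapped CTCF, while all 5 of the highest shared ones did.

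Distal H3K27ac regions without SATB1 did not reach the same ranks. The highest lay 94.2 kb from the start of TOP1 on chromosome 20 (40927585 to 40934657). It had H3K27ac maxima of 258 and 268, at a percentile of 98.8, and touched a SATB1 peak called in 1 list. The next was inside DGKZ, a diacylglycerol kinase that dampens T cell receptor signalling (249 and 250), and touched none. UBASH3B, UBXN11 and FMNL3 followed, each with a SATB1 peak in 1 list.

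At gene starts, 4125 of 19974 protein-coding genes had both targets within 2 kb, 20.7% of all. SATB1 alone was found at 413 genes (2.07%), H3K27ac alone at 3234 (16.2%), and neither at 12202 (61.1%). So 90.9% of the 4538 genes with SATB1 had H3K27ac, and 56.1% of the 7359 genes with H3K27ac had SATB1. Of the 413 genes with SATB1 alone, 178 had H3K27ac in 1 list, and of the 3234 with H3K27ac alone, 650 had SATB1 in 1 list. The start was the annotated 5′ end for the 15813 genes whose strand was at hand and either annotated end for the other 4161. For those 4161 genes the class can describe the end opposite to the true start. The share with both was 22% and 15.7% in these 2 sets, and 4 genes of the second set had the targets at opposite ends. A class describes the 4 kb around 1 annotated start: 190 genes with H3K27ac alone had an H3K27ac region there that met SATB1 farther along. The count with SATB1 alone was the least stable: it was 235 where an H3K27ac peak in 1 list was enough to remove a gene, 704 over whole gene bodies and 713 with windows of 500 bp on the maxima.

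At genes, too, the share with the other target was higher at higher rank. Among genes with SATB1, H3K27ac was present at 82.6% in decile 1 of SATB1 percentile and at 97.1% in decile 10. Among genes with H3K27ac, SATB1 was present at 24.2% in decile 1 of H3K27ac percentile and at 84.6% in decile 10. Over the 4125 genes with both, Spearman's coefficient between the percentiles was 0.367. The median SATB1 percentile was 60.3 at genes with both and 45.0 at genes with SATB1 alone, and the median H3K27ac percentile was 70.0 at genes with both and 45.1 at genes with H3K27ac alone.

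Among genes with both, the highest mean percentile was that of VANGL1, which acts in planar cell polarity. Its SATB1 maxima were 137 and 140 and its H3K27ac maxima 354 and 308. CALR, the calcium-binding chaperone calreticulin, had SATB1 maxima of 119 and 125 and H3K27ac maxima of 248 and 265, and MND1, a meiotic recombination factor, had 133 in both SATB1 lists and 221 and 215 for H3K27ac. Of the 10 genes named here, these 3 had the highest SATB1 percentiles, 99.7 to 99.8. TSPOAP1 had lower SATB1 maxima, 79 and 69, under one of the highest H3K27ac signals, 805 and 753. ARHGDIB, a regulator of small GTPases in blood cells (76 and 75 for SATB1, 429 and 368 for H3K27ac), ITGA4, an integrin chain that guides lymphocyte homing (77 and 76, 286 and 300), and HMGB2, a chromatin protein of proliferating cells (81 and 70, 289 and 240), followed with GTF2H2C_2, LZTFL1 and CCM2. GTF2H2C_2 has near-identical copies, among which reads could have been split. The annotation used puts it on chromosome 5 at 965642 to 1035028. That place was not checked, and the values hold for that place only.

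**Figure D3:**
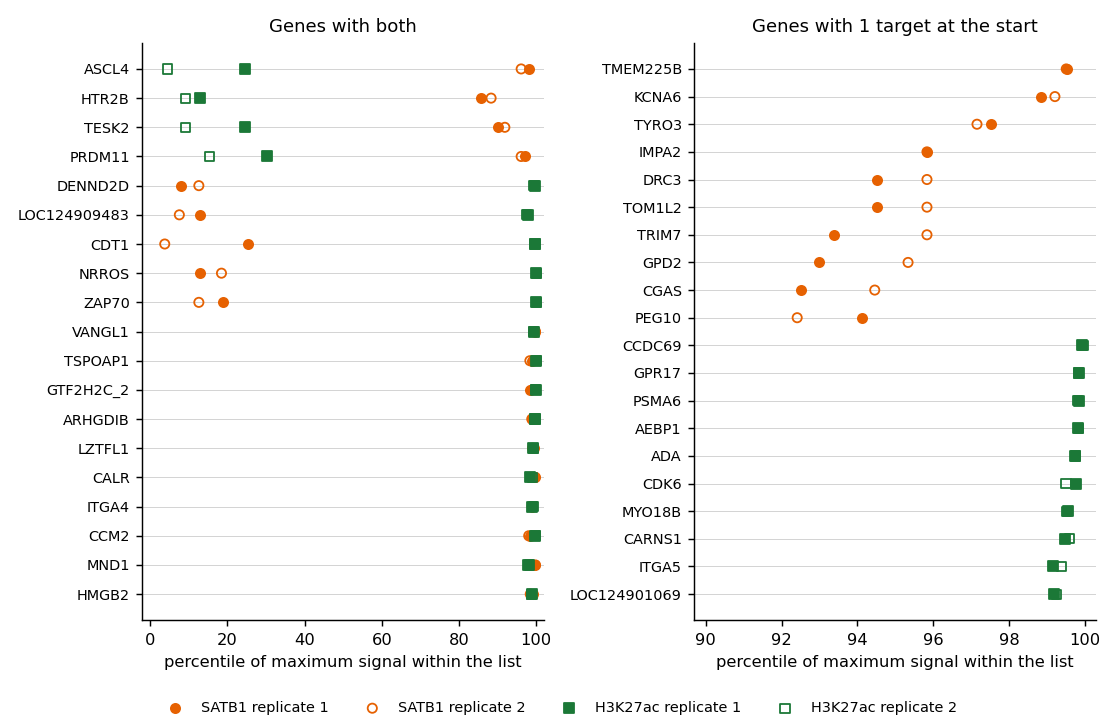
Percentile of maximum signal within each list (x axis) for genes chosen by rank whose targets, where both are present, lie at the same annotated end, with SATB1 as circles, H3K27ac as squares, replicate 1 filled and replicate 2 open; the left panel runs over 0 to 100 and the right over 90 to 100. In the left panel ASCL4 to PRDM11 have SATB1 at 85.6 or above and H3K27ac at 30.1 or below, and DENND2D to ZAP70 have SATB1 at 25.4 or below and H3K27ac at 97.4 or above.

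Some genes with both had the targets at opposite ends of the ranking. ASCL4, a basic helix-loop-helix factor, was at SATB1 percentiles of 98.0 and 96.1 and at H3K27ac percentiles of 24.5 and 4.52. PRDM11, HTR2B and TESK2 also ranked higher for SATB1, by 73.8 to 75.9 percentile points. In the other direction stood DENND2D, CDT1, NRROS, LOC124909483 and ZAP70, by 84.2 to 89.2 points. ZAP70, the kinase recruited to the triggered T cell receptor, had SATB1 maxima of 11 and 10 beside H3K27ac maxima of 586 and 598. CDT1, a replication licensing factor, had 12 and 8 for SATB1 and 400 and 369 for H3K27ac. The SATB1 gene itself (chromosome 3, 18345377 to 18445592) had both at its start, with SATB1 maxima of 11 and 9 and H3K27ac maxima of 37 and 30, and over its body SATB1 peaks covered 32.4 and 34.0 kb and H3K27ac peaks 36.4 and 33.0 kb.

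The genes with SATB1 alone were led by TMEM225B, with maxima of 102 and 101 in a region of 17541 bp. KCNA6, a potassium channel gene, had 76 and 86, and TYRO3, a receptor tyrosine kinase gene, had 59 and 56. IMPA2, TRIM7, GPD2, CGAS and PEG10 lay between 39 and 49. DRC3 and TOM1L2, neighbours, share 1 region with 44 and 49. CGAS, the cytosolic DNA sensor, and PEG10, an imprinted gene derived from a retrotransposon, ended the list at percentiles of 93.5 and 93.3. The strand of CGAS was not at hand. Its region lay at the annotated end of the lower coordinate, which may not be its start. IMPA2 and TRIM7 had an H3K27ac peak in 1 list, and the other 8 in neither.

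The genes with H3K27ac alone at the start and the highest H3K27ac were not far from SATB1. In all 10 the H3K27ac region met SATB1 outside the 4 kb window, and ADA, CDK6 and CARNS1 had a SATB1 peak of 1 list within 2 kb of the start. CCDC69 had maxima of 598 and 589 in a region of 15447 bp, and GPR17 498 and 441 in a region of 51499 bp. PSMA6, a proteasome subunit gene (469 and 419), ADA, the adenosine deaminase whose loss causes immunodeficiency (422 and 384), CDK6 (433 and 332), and ITGA5 (308 and 311) were among them, as were AEBP1, MYO18B, CARNS1 and LOC124901069, which shares its region with TCF7. Genes whose whole H3K27ac region was free of SATB1 ranked lower, and were picked out after the values were seen. They were led by PVRIG, an inhibitory receptor of T and NK cells (267 and 269), ARHGAP30 (236 and 215), EVPL (202 and 153), SETD1B, a histone H3K4 methyltransferase gene (188 and 146), and ARHGEF2 (182 and 139). EVPL and ARHGEF2 had a SATB1 peak in 1 list.

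Promoter sequence gave a readout that the peak lists did not use. The words searched, on both strands, were GGGCGG, the GC box bound by SP1, CCGGAAG, the core of ETS-family sites, TGTGGT, bound by RUNX factors, TATAAA, the TATA box, AGGGGGC, part of the CTCF motif, and AATATAT, the core of a base-unpairing sequence that SATB1 binds, and GGGCGG and AGGGGGC can overlap. In the 6 stretches printed, GC was 54.0% and 61.6% with both, 50% and 62.4% with SATB1 alone, and 57.2% and 72.8% with H3K27ac alone, and GGGCGG occurred 2 times each at LZTFL1, CALR and DRC3, 3 times at EVI5L and 0 times at ARHGAP30 and TEX30. CALR carried TATAAA, LZTFL1 carried TGTGGT, and ARHGAP30 carried TGTGGT 2 times and AGGGGGC. None of the 6 held AATATAT or CCGGAAG, and TEX30 held none of the words.

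Over all promoters with a sequence for the annotated start (250 bases before and 50 after it, n = 13792), median GC was 63.7% at genes with both, 65.5% with SATB1 alone, 66.0% with H3K27ac alone and 60.7% with neither. The observed over expected CpG ratio had medians of 0.854, 0.826, 0.880 and 0.619 in the same order. AATATAT was present in 0.811% of promoters with both, in 0 of 298 with SATB1 alone, which allows a share of up to 1.01%, in 0.462% with H3K27ac alone and in 2.23% with neither, against 1.56% of all. GGGCGG was present in 70.4%, 74.2%, 70.5% and 49.8%, against 58.5% of all, and TATAAA in 6.07%, 6.71%, 4.83% and 13.2%, against 10.0%. Promoters of all 3 marked classes were thus richer in G and C than those with neither, and no motif was tested.

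CCGGAAG separated the marked classes most. It was in 20.9% of the 3083 promoters with both, 11.7% of the 298 with SATB1 alone, 26.9% of the 2380 with H3K27ac alone and 8.59% of those with neither, against 14.6% of all. Promoters that were themselves overlapped by the regions gave 22.1%, 12.9% and 26.8% in the marked classes. With genes cut into 4 equal groups by H3K27ac percentile, the share was 16% with both and 28.2% with H3K27ac alone in the lowest group, and 19.3% and 17.4% in the highest. The highest group held 1130 promoters with both and 236 with H3K27ac alone. The shares lay close together there, and whether their order differs was not tested. TGTGGT was in 10.2%, 11.7%, 9.03% and 11.7%, against 10.9% of all, and AGGGGGC in 18.2%, 19.8%, 18.8% and 16.7%, against 17.5%.

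CTCF and Matrin 3 overlapped distal regions of the shared class most. CTCF, which anchors loops and insulates domains, overlapped 74.3% of distal SATB1 regions with H3K27ac (73.2 to 75.4), 26.5% of distal SATB1 regions alone (24.9 to 28.1) and 54.1% of distal H3K27ac regions alone (52.5 to 55.5). The single CTCF lists gave 71.7% to 74.9%, 24.7% to 27.8% and 52.0% to 55.8%. At gene starts the shares were 98.4%, 89.0% and 94.8%. The longer list of Matrin 3, a nuclear matrix protein, overlapped 87.5%, 52.7% and 56.5% of the same distal classes. The other Matrin 3 list had 2105 peaks against 24566 and overlapped 5.66%, 1.28% and 0.636%, so that shared regions had the highest share in both lists. All these targets were mapped with the same method and no control library was used here, and the part of signal common to all targets in these overlaps was not tested.

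The comparison was repeated at matched rank. With regions cut into 4 equal groups by SATB1 rank, CTCF overlapped 83.4% of distal shared regions (n = 1720) and 31.9% of distal SATB1 regions alone (n = 502) in the highest group, and 65.4% and 22% in the lowest. With H3K27ac regions cut by H3K27ac rank, the values for distal regions with and without SATB1 were 90.8% and 83.0% in the highest group and 47.6% and 42.2% in the lowest. For Matrin 3 they were 97.3% and 82.2% in the highest group and 74.3% and 42.0% in the lowest. At matched H3K27ac rank, regions with and without SATB1 thus lay closer together for CTCF than for Matrin 3.

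**Figure D4:**
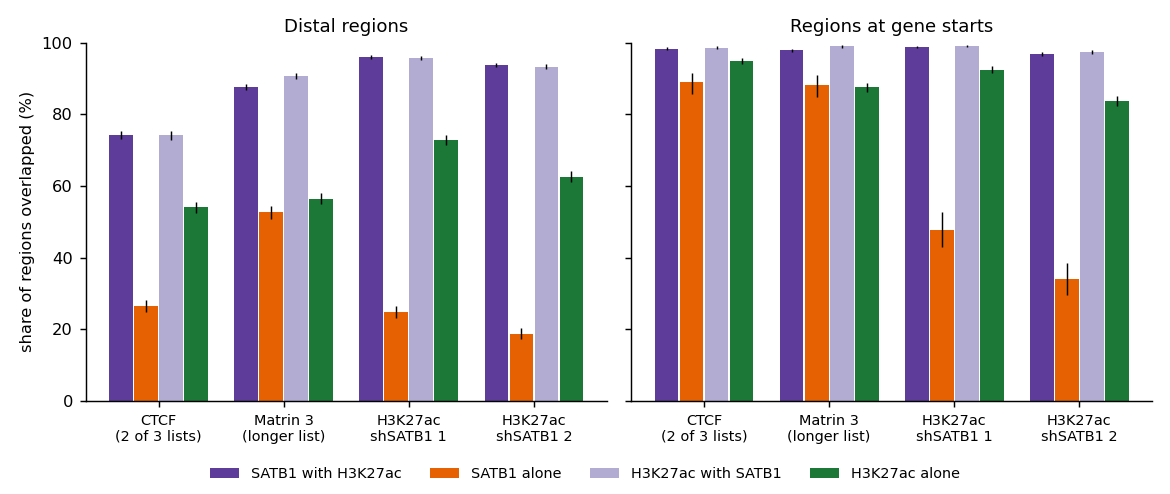
Share of regions (y axis, percent) overlapped by CTCF, the longer Matrin 3 list and the 2 H3K27ac lists of shSATB1 cells, for distal regions (left) and regions at gene starts (right); bars are classes and lines 95% Wilson intervals. Distal regions with SATB1 alone have the lowest bars, with 26.5% for CTCF.

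Lists from shSATB1 cells, made with other libraries, showed how often the H3K27ac classes were called again. H3K27ac regions with SATB1 were called in 97.2% and 95% by the 2 shSATB1 lists, and those without in 80.5% and 70.8%. The shares lay closer together at high rank: in the highest of the 4 H3K27ac rank groups distal regions with SATB1 were called in 100% and 99.9% and those without in 99.2% and 98.6%. In the lowest the values were 80.7% and 72.1% with SATB1, and 57.5% and 43.4% without. Of the SATB1 regions alone, 27.8% and 20.8% had an H3K27ac peak in the shSATB1 lists, and 19.4% touched an H3K27ac peak in 1 control list. The rule of this class left out regions with H3K27ac called in both control lists, and it did not filter the shSATB1 lists. The control and shSATB1 shares are therefore not comparable. These lists do not measure the knockdown, and no difference between arms was tested here.

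T cell receptor and thymocyte genes had both targets at most of their starts, taken as either annotated end where no strand was at hand. Of 20 T cell receptor signalling genes, 14 had both and 3 H3K27ac alone (70.0% with both, against 20.7% of all genes). Of the 17 with H3K27ac, SATB1 was thus at 82.4%, against 56.1% of all genes with H3K27ac and 82.5% and 84.6% of those in deciles 9 and 10 of H3K27ac percentile. LCK, the kinase that starts the signal, had SATB1 maxima of 21 in both lists and H3K27ac maxima of 260 and 219. CD3E, a receptor chain, had 32 and 35 for SATB1 and 493 and 427 for H3K27ac. Its strand was not at hand, and these regions lay at its annotated end of the higher coordinate, which may not be its start. The median percentile of the 14 was 59.2 for SATB1 and 98.3 for H3K27ac. The 3 with H3K27ac alone were CSK, the kinase that restrains LCK, the adaptor LAT and the receptor chain CD247. The other 3 had neither at the annotated start.

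Of 16 thymocyte surface and recombination genes, 11 had both (68.8%, against 20.7% of all genes), and CD7 had H3K27ac alone. Those with both included CD1B and CD1C, which present lipids on cortical thymocytes, DNTT, RAG2 and PTCRA. Of the 12 with H3K27ac, SATB1 was at 91.7%, against 56.1% of all genes with H3K27ac. In deciles 9 and 10 of H3K27ac percentile that share was 82.5% and 84.6%. Among 22 T-lineage transcription factors, 11 had both (50%, against 20.7% of all genes) and 5 H3K27ac alone (22.7%, against 16.2%). SATB1 was thus at 68.8% of the 16 with H3K27ac. TOX (39 and 41 for SATB1, 245 and 237 for H3K27ac), LEF1 (41 and 36, 128 and 127) and BCL11B (34 and 38, 79 and 65) were among those with both. The strand of TOX was not at hand. Its regions lay at the annotated end of the lower coordinate, which may not be its start. TCF7, TCF12, RUNX3, NOTCH1 and BACH2 had H3K27ac alone, and the TCF7 region, with maxima of 310 and 293, met SATB1 beyond the window. Of 14 genes of the TAL1 circuit of T cell leukaemia, 8 had both (57.1%, against 20.7% of all genes). SATB1 was at 80% of the 10 with H3K27ac, against 56.1% of all genes with H3K27ac. Members with both had median H3K27ac percentiles of 94.9, 94.3 and 91.8 in the thymocyte, T-lineage and TAL1 lists. All genes with both had a median of 70.0. TAL1, the driver expressed in Jurkat, had H3K27ac alone at its annotated start (273 and 247) in a region that met SATB1 elsewhere, and its partner LMO2 had SATB1 alone (34 and 41).

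Of 24 writers, erasers and readers of H3K27 acetylation, 11 had both (45.8%, against 20.7% of all genes), 8 H3K27ac alone (33.3%, against 16.2%) and 5 neither. Of the 19 with H3K27ac, SATB1 was at 57.9%, near the 56.1% of all genes with H3K27ac. CHD4 and RBBP4 of the NuRD deacetylase complex (percentiles of 97.4 and 94.2 for SATB1), SIN3A (93.1) and EP300, the acetyltransferase (71.4), had both. HDAC1, known as a partner of SATB1, had both at 49.0, and HDAC4 had both at 71.4. HDAC2, HDAC3 and HDAC7 had H3K27ac alone at the start. Of these, HDAC2 had a SATB1 peak in 1 list, and the HDAC7 region met SATB1 beyond the window. Of 21 genome architecture genes, 12 had both (57.1%, against 20.7% of all genes) and 7 H3K27ac alone (33.3%, against 16.2%). SATB1 was thus at 63.2% of the 19 with H3K27ac, against 56.1% of all genes with H3K27ac. Those with both were led by the CTCF gene (57 and 59 for SATB1, 225 and 215 for H3K27ac) and ZNF143, a promoter-binding loop factor (SATB1 percentile 98.9). Cohesin genes were split: RAD21, SMC3 and STAG1 had both, and SMC1A and STAG2 had H3K27ac alone, STAG2 with a SATB1 peak in 1 list. Of the genes that load and release cohesin, PDS5B had both, and NIPBL, WAPL and PDS5A had H3K27ac alone.

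Immediate-early genes had both at 9 of 20 (45.0%, against 20.7% of all genes), led by JUN (69 and 76 for SATB1, 91 and 75 for H3K27ac). Cell cycle genes had both at 10 of 20 (50%), led by CDK2 (73 and 76, 66 and 61). The strand of CDK2 was not at hand. Its regions lay at the annotated end of the higher coordinate, which may not be its start. Of the genes with H3K27ac, SATB1 was at 69.2% of 13 in the first list and 66.7% of 15 in the second, against 56.1% of all. EGR2, a factor induced by T cell receptor signalling, had a high SATB1 percentile (65.5) beside a low H3K27ac one (15.5). Cytokine genes and their receptors had both at 4 of 20, close to the 20.7% of all genes, and neither at 12. IL2, the growth factor gene that SATB1 is known to bind in T cells, had SATB1 alone (33 in both lists), with an H3K27ac peak in 1 list.

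SATB1 alone was rare, and 3 of the 7 listed genes that had it were apoptosis genes. FAS, a death receptor (30 and 33), CASP9, an initiator caspase (27 and 26, with H3K27ac in 1 list), and BCL2L11, which encodes BIM, had SATB1 alone (15.0% of 20, against 2.07% of all). In the same list 5 genes, such as CASP8, BIRC3 and BCL2L1, had both, and 9, such as BCL2, MCL1 and BAX, H3K27ac alone. SATB1 was thus at 35.7% of the 14 apoptosis genes with H3K27ac, against 56.1% of all such genes. The other 4 were LMO2, IL2, RPS24 and the neuronal gene SNAP25. Ribosomal protein genes had H3K27ac alone at 9 of 20 (45.0%, against 16.2% of all) and both at 8. The lists were described by counts only, and no list was compared with other genes by a test.

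**Figure D5:**
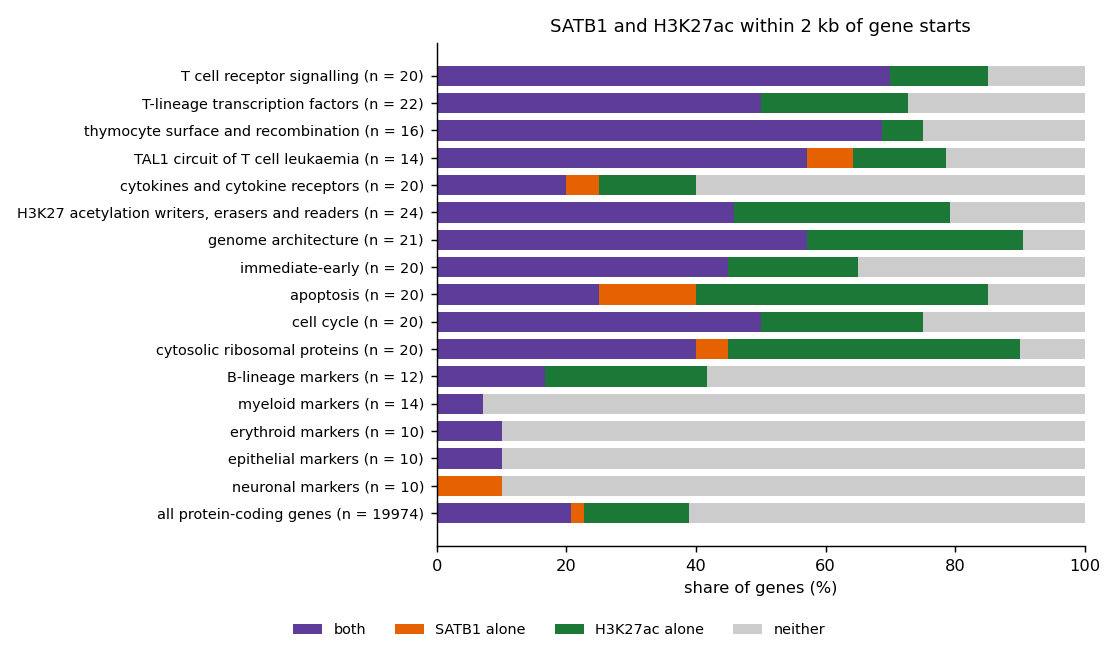
Share of genes (x axis, percent) with both targets, SATB1 alone, H3K27ac alone or neither within 2 kb of the start, for each gene list (rows, n in brackets) and all protein-coding genes (lowest row). The T cell receptor list has both at 70.0% and all genes at 20.7%; most myeloid, erythroid, epithelial and neuronal markers are in the class with neither, above the 61.1% of all genes, and B-lineage markers are at 58.3%.

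Myeloid, erythroid, epithelial and neuronal markers rarely had either target, while B-lineage markers were near the share of all genes. Of 12 B-lineage markers, 2 had both, IGLL1 and CD79A, 3 had H3K27ac alone, VPREB1, BLK and POU2AF1, and 7 had neither (58.3%, against 61.1% of all genes). CEBPE was the 1 myeloid marker of 14 with both, TFRC, the transferrin receptor of all dividing cells, the 1 erythroid marker of 10, and MUC1 the 1 epithelial marker of 10. The other 13, 9 and 9 lacked both targets by the rule of both lists.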

How the data were processed

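CUT&Tag peak lists from Jurkat cells were used: SATB1 (2) and H3K27ac (2) in shCtrl cells, with H3K27ac in shSATB1 cells (2), CTCF in shCtrl cells (3) and Matrin 3 (2) as further readouts. Per the submitters' processing notes, the authors trimmed reads with Trim Galore, aligned them with Bowtie2 to GRCh38 (hg38) and used SAMtools, deepTools, MACS2 and SEACR; these notes name no versions. The deposited columns hold each peak's total and maximum signal, in whole numbers with no scaling between libraries recorded. Read depth is therefore unknown, and signal was used only for ranks within a list. The 121 peaks of the 4 lists outside chromosomes 1 to 22 and X were left out.

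Overlaps (at least 1 bp), distances, ranks and Wilson intervals (95%) were computed with Python 3.11.15, numpy 2.4.6, pandas 2.3.3 and scipy 1.17.1, and overlap counting was checked on simulated peaks. Gene starts came from a RefSeq table on GRCh38.p14, which gave the strand of 15813 of 19974 protein-coding genes through the promoter table. All 268 genes of 16 lists matched. Lists of the targets were compared by two-sided exact permutation tests. Named genes and distal sites were the highest by mean percentile in each class and the largest percentile differences among genes with both, plus SATB1 and up to 4 members per class of each gene list; any further members in the text were picked with their values in view. Members and gene lists were chosen with earlier results of these data known, and classes are described by counts. Alternatives were 500 bp windows, the upper part or equal lengths of lists, other distances and gene sets, total signal, and leaving out each list. The replicate numbers name lists only, since nothing says that they pair libraries. A few genes that the naming rule chose are not reported here.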

Additional observations from a re-analysis of the deposited data

How the results depend on the processing

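Of 149 values under alternatives, 89 kept within the tolerance of the reported value and 60 moved beyond it. The tolerance was the 95% interval of a share, 1.5 times for a gene count and the SD over list pairs for the rank coefficient. For the 3 differences between targets it was the sign alone, whatever the size. Among these differences and the rank coefficient, 0 values changed direction, and shares and gene counts have no direction to change. The share of SATB1 regions with H3K27ac (75.3%) was 55.7% with 500 bp windows on the maxima, 63.1% with the peaks above each list's median rank, 71.3% with lists of equal length, 80.1% where a peak of either list counted, and 76.5% without SATB1 peaks of shared start; the reverse share (54.4%) was 50.1%, 48.6%, 59.3%, 62.8% and 31.3%. Leaving out 1 list gave 72.6% to 77.9% and 49.2% to 59.2%. Genes with both (4125) were 1920 with the peaks above the median, and 4192 to 4485 without a list. Genes with SATB1 alone (413) were 713 with 500 bp windows, 623 with those above the median, 235 where either list counted, 704 over gene bodies and 848 over all annotated genes, and 305 to 527 without a list. Genes with H3K27ac alone (3234) were 5007 over all annotated genes, and 2874 to 3617 without a list. With every listed start of a gene, a setting chosen after the data were seen, the 3 counts were 4329, 441 and 3326.

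The distal shares of shared SATB1 regions, SATB1 alone and H3K27ac alone (64.2%, 87.0% and 61.2%) were 53.1%, 75.9% and 49.4% at 10 kb, 55.5%, 77.9% and 52.3% at 2 kb from any annotated gene, and 64.5% to 64.9%, 86.7% to 88.6% and 61.4% to 65.4% without a list. The rank coefficient (0.226) was 0.352 by total signal, 0.217 by total per base, 0.319 at gene starts, 0.194 at distal sites, 0.364 with 500 bp windows, 0.187 with peaks above the median, 0.197 with equal lengths, 0.286, 0.337 and 0.187 in the 3 width classes of H3K27ac, and 0.214 to 0.242 without a list. CTCF at distal shared SATB1 regions, SATB1 alone and H3K27ac alone was 69.8% to 73.4%, 22.7% to 25.7% and 48.4% to 53.7% without a list, CTCF lists included, which was a setting chosen after the data were seen. The causes were not tested. A replicate block pairs lists by number only. With it the differences between targets were the same by construction (-8.63 percentage points at gene starts, -846 bp in width, -4.78 points for CTCF). An exact test that flips the sign of each pair's difference gave p = 0.5, the smallest it allows, so it could not decide. The limits are that depth is unknown, that the SATB1 lists are in part alike, and that a region just under a list's threshold is counted as absent.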
